A study of Mus musculus with 6 samples.

Results

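The 10 genes described here have each been reported in other work as direct targets of the microRNA miR-223: Lmo2, E2f1, Nfia, Foxo1, Stat3, Fbxw7, Rhob, Stmn1, Scarb1 and F3. They were taken by name and array identifier from a list drawn up with earlier results of these data known. For them the list names 18 of the 45101 probe sets on the array. A probe set is a group of short probes that together give 1 value per array. In the list, 4 of the 10 genes have 1 probe set, 4 have 2 and 2 have 3. Whether other probe sets on the array read these genes was not examined. The mRNA was measured on 6 Affymetrix arrays, 3 of miR-223 null and 3 of wild-type mouse neutrophils, all grown from bone marrow progenitors. Both genotypes matured in the same culture scheme. Stem cell factor (SCF) and the granulocyte growth factor G-CSF were present for 6 days, SCF was left out for the next 42 hours, and the surviving cells were collected on magnetic beads. Strain, sex and age of the mice, and the construction of the null allele, are not given in the sources used here. Whether arrays of a genotype came from separate mice or cultures is not stated either, so the p-values measure the spread between these arrays, which may be technical. Neutrophil markers and miR-223 itself were not analysed here, because apart from these 18 only control probe sets could be tied to a gene.

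MicroRNAs guide a repressor complex to messages that pair with their 5′ end, chiefly with the stretch called the seed, and the paired message is translated less and often degraded. miR-223 is abundant in granulocytes and is known as a regulator of their maturation and activity. A target whose message is degraded would hold more mRNA where the microRNA is missing, so the comparison asks which of these messages were higher in null cells. The arrays do not measure protein, so repression of translation alone would not be seen. The 2 mature strands of the mouse hairpin are shown because the reported pairing of these genes is with the 3p strand. The sequences are those of RefSeq on build GRCm38.p6, from the plus strand of the X chromosome, with bases 2 to 8 (the seed) in capitals.

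mmu-miR-223-3p, chrX:96242884-96242905: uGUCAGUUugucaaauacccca
mmu-miR-223-5p, chrX:96242842-96242864: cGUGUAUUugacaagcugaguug

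The letters in an mRNA (written as DNA) that pair with the 3p seed are AACTGAC, and those for the 5p seed are AATACAC. Of 1679 mature mouse microRNAs in the same table, 1 carries the 3p seed, miR-223-3p itself, and likewise 1 the 5p seed. The untranslated regions of the 10 genes were not used here, so whether their messages hold these letters was not examined.

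Levels are log2 intensities, so a difference of 1 is a doubling in signal, and every difference is null minus wild type. The close array medians given below make it likely that the arrays had been brought to one scale before deposit, which the sources used here do not state. A difference is then relative to the remaining probe sets. Of the 18 probe sets 16, from 9 genes, passed a filter on low values and were tested among 27022 kept probe sets with limma, at a Benjamini-Hochberg adjusted p under 0.05. Both listed Nfia probe sets fell below the filter. The fit was made without and with the replicate number as a block, since deviations of same-numbered arrays from their group means correlated at 0.70, 0.30 and 0.48. Differently numbered arrays also correlated, null 2 with wild-type 3 at 0.21 and null 3 with wild-type 2 at 0.41. These correlations set replicate 1 apart and do not settle how replicates 2 and 3 pair. Medians of the 6 arrays lay between 4.71 and 4.72. Both replicate 1 arrays stood apart in their spiked poly-A controls, which averaged 8.92 (null) and 8.77 (wild type), against 8.16 to 8.58 on the others. The 3′ minus 5′ difference of beta-actin, a measure of RNA integrity, was 0.28 and 0.26 on these arrays against 0.15 to 0.21.

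Without the block, 1 of the 16 probe sets passed, that of Lmo2, where 0.141% of all kept probe sets passed as higher in null cells. With the block, 7 passed, all higher in null cells and from 5 genes (Lmo2, Rhob, Stat3, Fbxw7 and Stmn1), where 4.96% of all kept probe sets did. No member passed as lower. Of all 27022 kept probe sets, 13 passed as lower without the block and 1364 with it. At these shares the lack of a lower call among 16 probe sets says little by itself. With both replicate 1 arrays left out and no block, 2 arrays of each genotype remained. In that fit 6 passed, again all higher, against 2.36% of all kept probe sets. They were those of Lmo2, Rhob and Stmn1, 2 of Stat3 and 1 of Fbxw7. The 7 calls rest partly on the variance model. Dropping its intensity trend left 2 calls with the block, Lmo2 and Rhob, where 0.518% of all kept probe sets passed as higher. The fit that left out both replicate 1 arrays was not run without this trend.

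The members lay toward the side of higher values in null cells as a group. Of the 16 tested probe sets, 15 had a difference above 0, compared with 47.5% of all kept probe sets, and their median difference was 0.33 against -0.011. In 10 of the 16 the null array was higher in 3 of 3 same-numbered pairs, compared with 21.6% of all kept probe sets. In 5 of the 16 all null arrays lay above all wild-type arrays, compared with 8.12% of all kept ones, and in none did they lie below. Of all kept probe sets, 16.8% lay either above or below without overlap. Probe sets of one gene read the same message, so these counts do not stand for 16 separate observations, and the genes were listed with earlier results of these arrays known. In cell populations such as these, a changed share of cells expressing a gene and a changed amount of RNA per cell cannot be told apart.

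**Figure D1:**
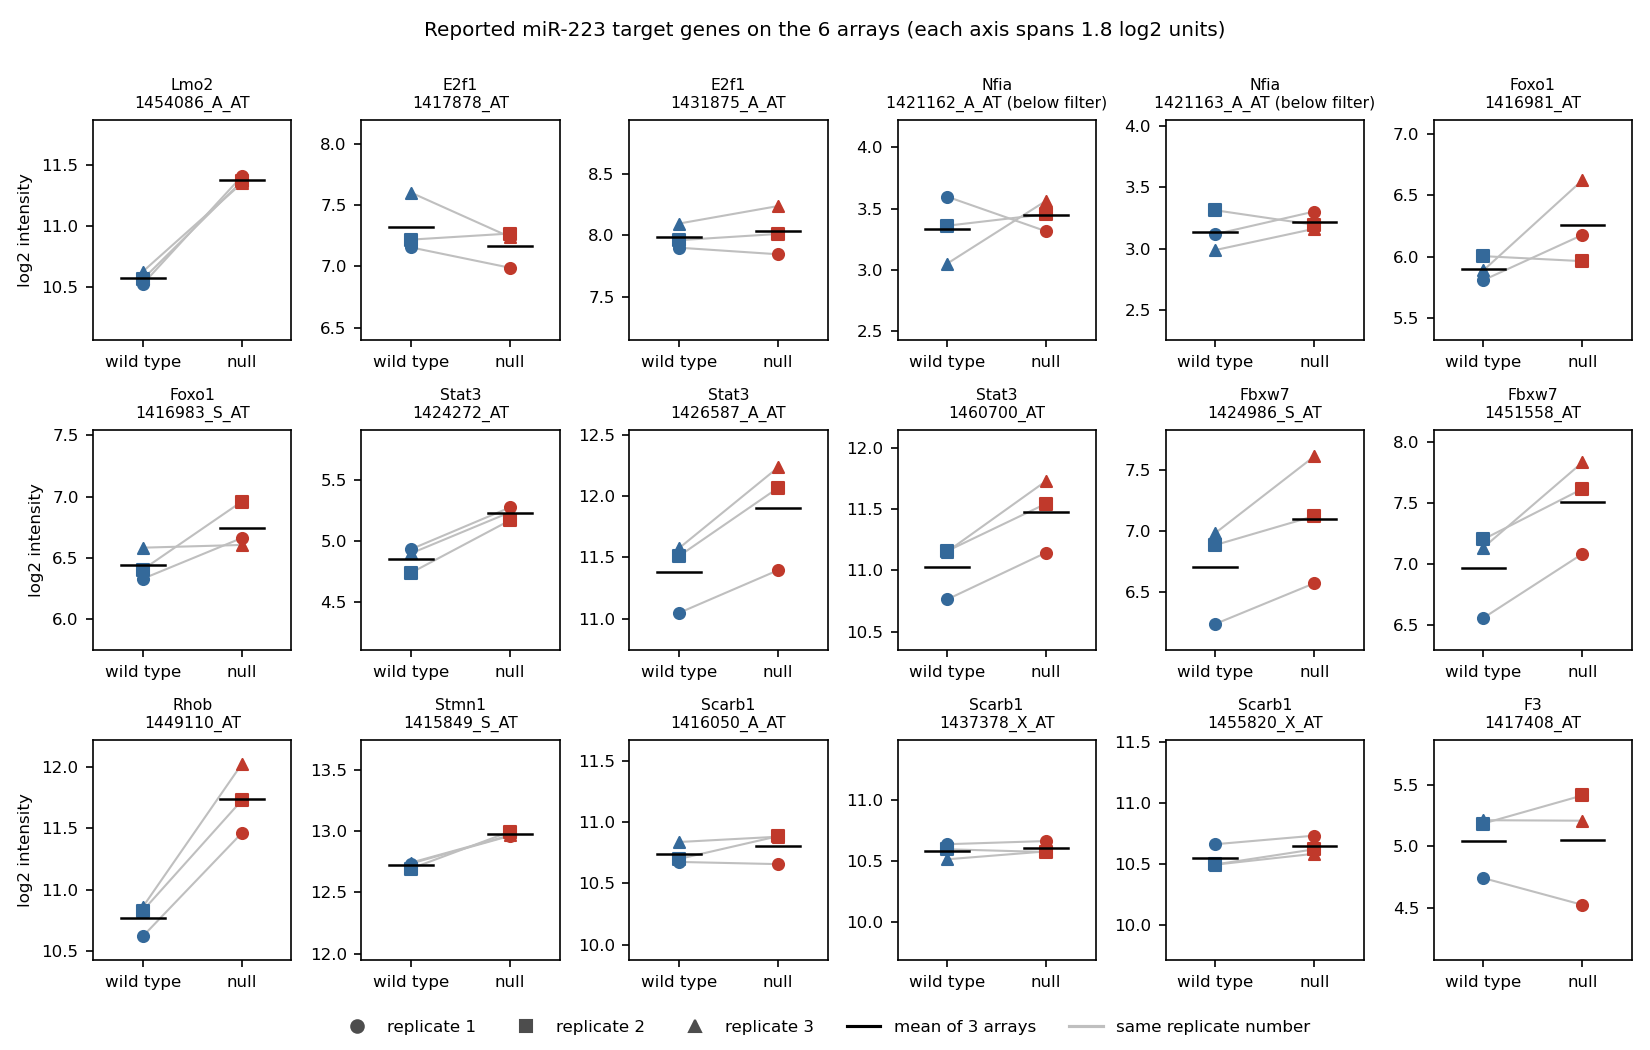
Log2 intensity (y axis) of the 18 probe sets on the 3 wild-type (blue) and 3 null (red) arrays; marker shapes give the replicate number, grey lines join arrays of the same number, black bars are means, and every y axis spans the same range. Lmo2 and Rhob are separated between genotypes by the widest gaps, while Scarb1, E2f1 and F3 overlap.

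Among the transcriptional regulators, Lmo2 rose in null cells and passed in both fits. LMO2 is an adaptor without DNA-binding activity that joins other factors into complexes in stem cells and erythroid progenitors, and it has been reported as a miR-223 target in red cell formation. Probe set 1454086_A_AT read 11.41, 11.36 and 11.35 on null arrays 1 to 3 and 10.52, 10.56 and 10.63 on the wild-type arrays. All null arrays lay above all wild-type arrays, and replicates of one genotype lay close together. The null mean was 11.37 ± 0.030 (SD, n = 3) and the wild-type mean 10.57 ± 0.052 (SD, n = 3), a 1.74-fold rise. The log2 difference was 0.80 (SE 0.070, 95% confidence interval 0.64 to 0.96, limma adjusted p = 0.0123). It was larger than the difference of 99.5% of all kept probe sets. With the block the adjusted p was 0.000384. Without the block the call did not survive the removal of null 2, null 3, wild-type 2 or wild-type 3 (limma adjusted p = 0.143, 0.0711, 0.125 and 0.0839), while the difference stayed between 0.78 and 0.83. Within the pairs of replicates 1, 2 and 3 it was 0.88, 0.80 and 0.72. Lmo2 was also among the members whose replicate 1 arrays hardly departed from the others, by 0.049 in null and -0.071 in wild-type cells.

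Stat3 was higher in null cells at all 3 of its listed probe sets, and 2 of them passed with the block. STAT3 is the transcription factor activated by the G-CSF receptor and by interleukin-6 family cytokines, and has been reported as a miR-223 target in macrophages. Probe set 1426587_A_AT read 11.40, 12.07 and 12.23 on the null and 11.05, 11.51 and 11.57 on the wild-type arrays. The genotypes overlapped because null 1 was low, yet each null array was above the wild-type array of its number. The difference was 0.52, or 1.44-fold, with an SE of 0.23 and a limma adjusted p of 0.481 without the block, and an SE of 0.060 and an adjusted p of 0.00384 with it. Probe set 1460700_AT read 11.15, 11.55 and 11.73 on the null and 10.76, 11.16 and 11.15 on the wild-type arrays. The overlap was limited to null 1, which lay just below wild-type 2 and 3. Its difference was 0.45, or 1.37-fold (limma adjusted p = 0.403 without and 0.00375 with the block).

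The last Stat3 probe set, 1424272_AT, read 5.27, 5.17 and 5.23 on the null and 4.93, 4.74 and 4.90 on the wild-type arrays. Here the genotypes did not overlap and replicate 1 was not low. The difference was 0.37 (SE 0.097, 95% confidence interval 0.14 to 0.60), which passed in neither fit (limma adjusted p = 0.235 without and 0.0600 with the block). Over the 3 probe sets the mean difference for the gene was 0.36, 0.46 and 0.52 in the pairs of replicates 1, 2 and 3. Without the intensity trend in the variance, none of the 3 passed with the block (0.0669, 0.0684 and 0.0721 as limma adjusted p).

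Foxo1 had differences above 0 at both probe sets, and neither passed. FOXO1 is a forkhead transcription factor that is kept out of the nucleus by insulin and growth factor signalling through AKT, and drives genes of cell cycle arrest and survival. Probe set 1416983_S_AT read 6.66, 6.96 and 6.61 on the null and 6.33, 6.40 and 6.58 on the wild-type arrays. The genotypes did not overlap, but null 3 exceeded wild-type 3 by 0.022 only. The difference was 0.30 with a 95% confidence interval of -0.0075 to 0.61 (limma adjusted p = 0.478 without and 0.147 with the block). Probe set 1416981_AT read 6.18, 5.96 and 6.62 against 5.81, 6.00 and 5.89, and null 2 lay below wild-type 2. Its difference was 0.36 (limma adjusted p = 0.531 without and 0.177 with the block), and 0.17 without null 3. With the block it was 0.16 without replicate 3 and 0.55 without replicate 2. That of 1416983_S_AT was 0.19 without null 2 and, with the block, 0.18 without replicate 2. The 2 probe sets differed in which pair was furthest apart, replicate 2 for the first and replicate 3 for the second. Averaged over both, the gene read 6.42, 6.46 and 6.61 on the null and 6.07, 6.20 and 6.23 on the wild-type arrays, with no overlap and a difference of 0.33; this average was not tested.

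E2f1 did not pass, and its 2 probe sets differed in sign. E2F1 turns on genes of DNA synthesis and has been reported to be held down by miR-223 as granulocyte precursors leave the cell cycle. Probe set 1417878_AT read 6.99, 7.27 and 7.24 on the null and 7.15, 7.22 and 7.60 on the wild-type arrays. The difference was -0.16 with a 95% confidence interval of -0.51 to 0.20 (limma adjusted p = 0.786 without and 0.357 with the block), and wild-type 3 was the highest array. Without wild-type 3 the difference was -0.021, without null 1 it was -0.071, and without replicate 3 in the blocked fit -0.058. It was -0.24 without wild-type 1 and, with the block, -0.26 without replicate 2. Probe set 1431875_A_AT read 7.85, 8.01 and 8.24 on the null and 7.90, 7.96 and 8.10 on the wild-type arrays. Its difference was 0.047 with a 95% confidence interval of -0.26 to 0.35 (limma adjusted p = 0.944 without and 0.746 with the block), and the arrays of both genotypes were interleaved. These intervals do not reach a 2-fold difference in either direction. Both hold smaller differences.

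Nfia could not be tested at either of its listed probe sets. NFIA is a transcription factor whose exchange for C/EBPalpha has been reported to control miR-223, and whose own message has been reported as a target, in granulocyte differentiation. The listed probe sets averaged 3.39 and 3.18 over the 6 arrays, below the filter at 4.08. Probe set 1421162_A_AT read 3.32, 3.46 and 3.57 on the null and 3.60, 3.36 and 3.05 on the wild-type arrays. Probe set 1421163_A_AT read 3.30, 3.19 and 3.16 against 3.12, 3.31 and 2.99. Both overlapped between genotypes. In a fit with no filter the differences were 0.11 and 0.080 (limma adjusted p = 0.896 and 0.892 without the block), and at signals this low they bear little on the gene.

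Fbxw7, which acts on the stability of regulators rather than on their genes, was higher in null cells at both probe sets. Over all 6 arrays both passed with the block and neither passed without it. FBXW7 is the substrate-binding part of an SCF ubiquitin ligase that marks cyclin E, MYC, NOTCH1 and MCL1 for destruction. Probe set 1451558_AT read 7.08, 7.62 and 7.83 on the null and 6.56, 7.20 and 7.14 on the wild-type arrays. Null 1 lay below wild-type 2 and 3, so the genotypes overlapped, while the pairs differed by 0.52, 0.41 and 0.70. The difference was 0.54, or 1.46-fold (limma adjusted p = 0.477 without and 0.0118 with the block). Probe set 1424986_S_AT read 6.58, 7.12 and 7.61 on the null and 6.24, 6.89 and 6.98 on the wild-type arrays. It showed the same arrangement, with pairs that differed by 0.33, 0.24 and 0.63 and a difference of 0.40 (limma adjusted p = 0.705 without and 0.0484 with the block). Without the block single arrays moved this difference widely, to 0.14 when null 3 was removed, 0.17 when wild-type 1 was and 0.66 when null 1 was. That of 1451558_AT went from 0.54 to 0.34 without wild-type 1. The second call did not survive the removal of any 1 pair from the blocked fit (0.0731, 0.114 and 0.151 without replicates 1, 2 and 3, as limma adjusted p), with no filter (0.0505) and after median centring (0.0527). Without the intensity trend neither passed (limma adjusted p = 0.0599 and 0.106).

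**Figure D2:**
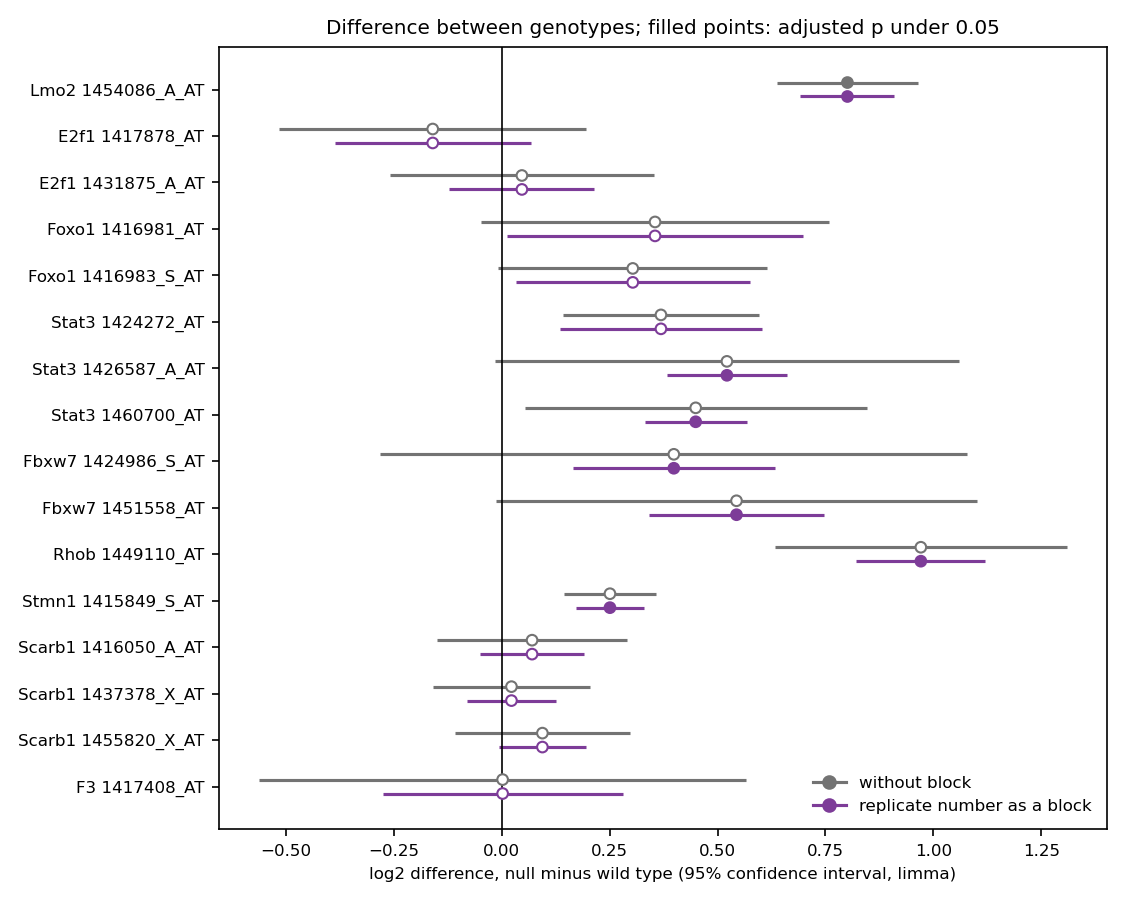
Log2 difference, null minus wild type (x axis), of the 16 tested probe sets with 95% confidence intervals from limma, without a block (grey) and with the replicate number as a block (purple); filled points passed at the adjusted threshold. Lmo2 is filled in both fits, and 7 probe sets of 5 genes are filled with the block.

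Of the 2 cytoskeletal regulators, Rhob had the largest difference of any member. RHOB is a small GTPase on endosomes and the plasma membrane that regulates actin and vesicle traffic, and its gene is induced by growth factors and stress. Probe set 1449110_AT read 11.46, 11.73 and 12.03 on the null and 10.62, 10.83 and 10.86 on the wild-type arrays. The lowest null array lay above the highest wild-type array by more than the whole range of the wild-type group. The null mean was 11.74 ± 0.28 (SD, n = 3) and the wild-type mean 10.77 ± 0.13 (SD, n = 3), a 1.96-fold difference. The log2 difference was 0.97 (SE 0.14, 95% confidence interval 0.63 to 1.31), and 99.8% of all kept probe sets had a lower one. It missed the threshold without the block (limma adjusted p = 0.0614) and passed with it (0.000696). Without the block it passed when null 1 was left out, where the null arrays spread less (difference 1.11, limma adjusted p = 0.0292). With the block it passed in all 9 fits run, which besides the one above left out a pair or changed the filter, the normalization or the variance model (differences of 0.87 to 1.03, limma adjusted p = 0.000100 to 0.0354).

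Stmn1 rose by a small amount that was nearly the same in every pair. Stathmin binds tubulin dimers and promotes the shrinkage of microtubules, and is abundant in dividing precursors; it has been reported as a miR-223 target in liver cancer cells. Probe set 1415849_S_AT read 12.96, 13.00 and 12.97 on the null and 12.74, 12.69 and 12.74 on the wild-type arrays. The genotypes did not overlap and each spread little, with SDs of 0.019 and 0.026 (n = 3). The difference was 0.25, or 1.19-fold (SE 0.046, 95% confidence interval 0.14 to 0.36, limma adjusted p = 0.110 without and 0.00671 with the block). The pairs differed by 0.23, 0.30 and 0.22. Of all kept probe sets, 83.0% had a smaller difference in size. With the block, the call was lost without the replicate 2 pair (limma adjusted p = 0.0618) and without the intensity trend (0.114).

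The cell surface members did not pass in either fit. SCARB1 is the receptor that takes up cholesterol from high-density lipoprotein, and its repression by miR-223 was reported in liver cells. Its probe set 1416050_A_AT read 10.66, 10.88 and 10.88 on the null and 10.67, 10.70 and 10.84 on the wild-type arrays. Probe set 1437378_X_AT read 10.66, 10.57 and 10.58 against 10.64, 10.60 and 10.51, and probe set 1455820_X_AT read 10.73, 10.62 and 10.58 against 10.66, 10.50 and 10.50. All 3 overlapped between genotypes. Averaged over the 3, the gene read 10.68, 10.69 and 10.68 on the null and 10.66, 10.60 and 10.62 on the wild-type arrays, with no overlap and a difference of 0.062; this average was not tested. Their differences were 0.070, 0.023 and 0.094, with 95% confidence intervals of -0.15 to 0.29, -0.16 to 0.20 and -0.11 to 0.30 without the block. The limma adjusted p was 0.867, 0.957 and 0.777, and with the block 0.455, 0.807 and 0.219. A difference as large as those of Lmo2 or Rhob lies outside these intervals without the block. One the size of Stmn1 lies within 2 of them and outside that of 1437378_X_AT. With the block the intervals were -0.050 to 0.19, -0.081 to 0.13 and -0.0067 to 0.20. A difference the size of Stmn1 lies outside all 3 of those. Probe sets with the manufacturer's suffix X can bind messages other than the named one, and those with S can bind several related messages.

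F3 encodes tissue factor, the starter of blood clotting, which monocytes and vessel cells make on stimulation. Probe set 1417408_AT read 4.52, 5.42 and 5.21 on the null and 4.74, 5.19 and 5.21 on the wild-type arrays. The replicate 1 arrays were the lowest of their group in both genotypes, and the remaining arrays overlapped. The difference was 0.0021 with a 95% confidence interval of -0.56 to 0.57, and -0.28 to 0.28 with the block (limma adjusted p = 0.999 and 0.994). These are among the widest intervals of the members.

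**Figure D3:**
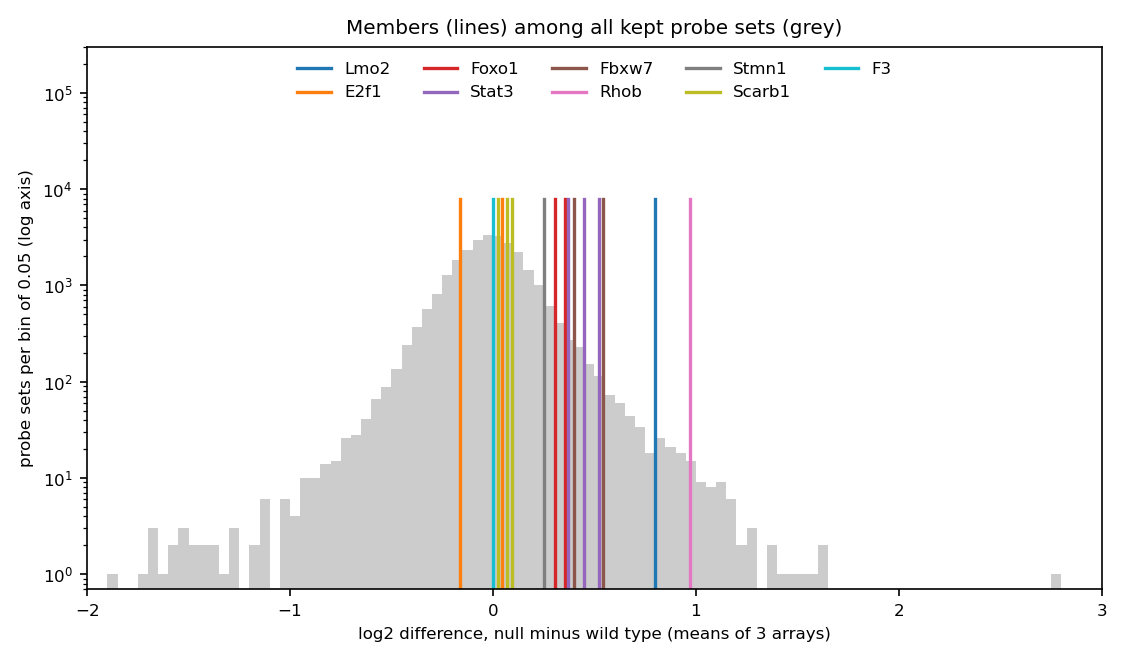
Number of kept probe sets (y axis, log scale) by log2 difference, null minus wild type (x axis, bins of 0.05); coloured lines mark the 16 tested members by gene. Lmo2 and Rhob lie in the upper tail at 0.80 and 0.97, and E2f1, F3 and Scarb1 lie near the centre.

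The members differed among themselves in how far the replicate 1 arrays departed from replicates 2 and 3. Replicate 1 was lower in both genotypes in 11 of the 16 tested probe sets and higher in both in 3. For comparison, 35.9% of all kept probe sets were lower in both, and the share higher in both was not counted. At Fbxw7 1424986_S_AT the departure was -0.79 in null and -0.69 in wild-type cells, and at F3 it was -0.79 and -0.46. At Fbxw7 1451558_AT it was -0.64 and -0.61. At Stat3 1426587_A_AT it was -0.76 and -0.50, and at 1460700_AT -0.49 and -0.39. In 8 of the 16 tested probe sets, all those of Fbxw7, F3, E2f1 and Scarb1, this departure was larger in size than the difference between genotypes in both groups of arrays. In 2 more, Stat3 1426587_A_AT and 1460700_AT, it was larger in null arrays alone. Over all kept probe sets the median size of the departure was 0.20 in null and 0.18 in wild-type cells, and that of the difference between genotypes was 0.11. Over all kept probe sets too, the median departure was thus larger than the median difference between genotypes. The share of them whose departure exceeded their own difference was not counted. Whether such departures were particular to the members was therefore not tested. Rhob departed by -0.42 and -0.22, less than its difference between genotypes. Stmn1 departed by -0.019 and 0.018, and the Stat3 probe set 1424272_AT by 0.072 and 0.11, in the direction opposite to the other 2 of its gene. The spiked controls and the actin ratio given above also set replicate 1 apart, and their part in these departures was not tested. With both replicate 1 arrays left out, the differences without a block were 0.76 for Lmo2, 1.03 for Rhob, 0.26 for Stmn1, 0.61 and 0.48 for Stat3 1426587_A_AT and 1460700_AT, and 0.55 for Fbxw7 1451558_AT (limma adjusted p = 0.00187, 0.00280, 0.0222, 0.00730, 0.0153 and 0.0399).

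**Figure D4:**
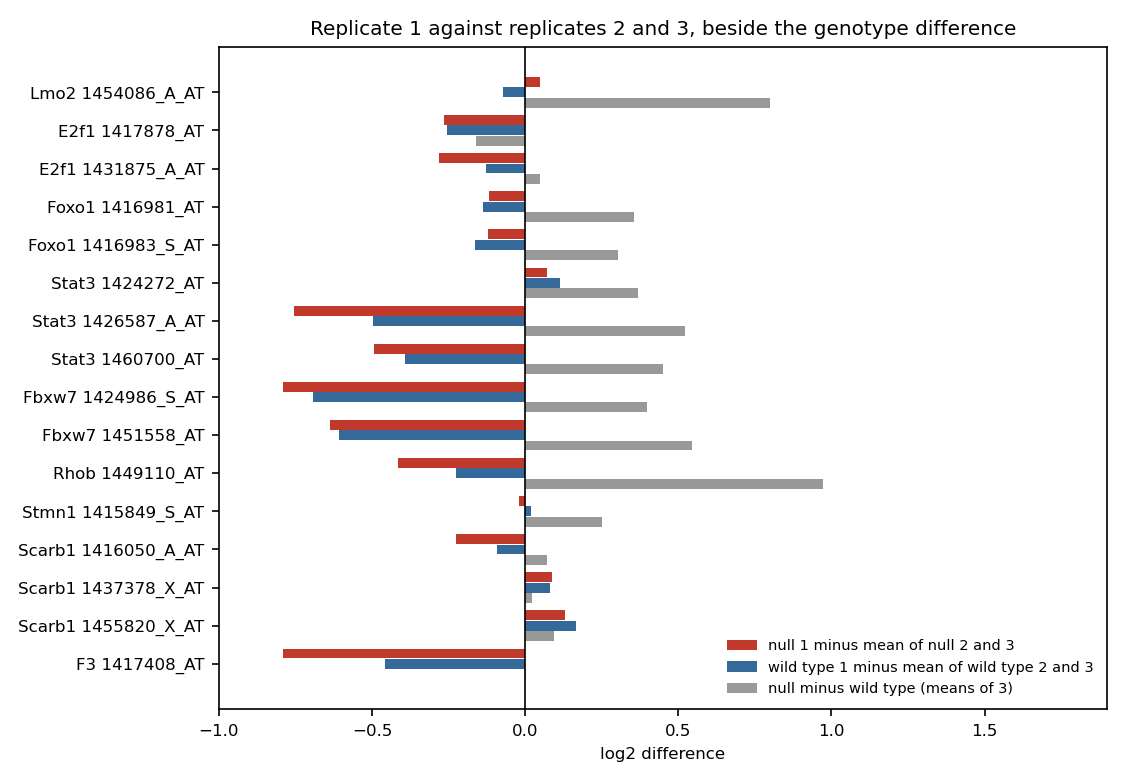
Log2 difference (x axis) of the replicate 1 array from the mean of replicates 2 and 3 in null (red) and wild-type (blue) cells, with the difference between genotypes (grey), for the 16 tested probe sets. Replicate 1 is lower in both genotypes by 0.39 to 0.79 at 2 Stat3 probe sets, both Fbxw7 probe sets and F3, and hardly departs at Lmo2 and Stmn1.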

How the data were processed

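Messenger RNA of 3 miR-223 null and 3 wild-type arrays was compared. As deposited, 45101 probe sets carry a log2 intensity on each array; that the scale is log2 was read from the range. Per the submitters' processing notes GCOS was used; background correction, normalization and probe summary are not given in the sources used here. Groups and replicate numbers came from the sample titles. The 64 control probe sets were set aside, and probe sets with a mean at or above the 40th percentile (4.08) over all arrays were kept. Differences were tested across all 27022 kept probe sets with limma 3.58.1 in R 4.3.3 (lmFit, eBayes with an intensity trend, two-sided, Benjamini-Hochberg adjustment), without a block as the main test and with the replicate number as a block. Replicate numbers were treated as pairs because all 3 same-numbered pairs correlated above 0.1. Null 2 with wild-type 3 and null 3 with wild-type 2 did so too, so this rule does not settle the pairing of replicates 2 and 3. The labels do not say what a number stands for. Alternatives were another filter or none, quantile normalization, median centring, no intensity trend, a threshold of 0.01, and leaving out arrays or pairs. Confidence intervals are not adjusted for the number of tests. The code was checked on simulated data. With 3 arrays a group, their number limits the precision. Named genes are all 18 probe sets; each is reported singly, and a mean over a gene's probe sets is given without a test. Their gene names came with the list of identifiers; further gene lists and cell type markers were fixed but not used here, since no table paired other probe sets with genes. The members and lists were chosen with earlier results of these data known.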

Additional observations from a re-analysis of the deposited data

How the results depend on the processing

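Over all kept probe sets 51 passed without the block, 2 at an adjusted p under 0.01, and 0 to 58 with 1 array left out (0 without null 2 or wild-type 2, where limma gave 2064 and 1753 at an unadjusted p under 0.05). Among the members the count was 1, then 0 at 0.01, and 0 to 2 with 1 array left out (0 without null 2 or 3 or wild-type 2 or 3, and 2 without null 1). With both replicate 1 arrays left out 1072 passed, 6 of them members. With the replicate block 2703 passed, 7 of them members. With the block these counts were 2455 and 6 with no filter, 3052 and 7 with the 60th percentile filter, 2562 and 7 after quantile normalization, 2546 and 6 after median centring, 191 and 2 without the intensity trend, and 625 and 5 at 0.01. With the block they were 2045 and 6 without replicate 1, 606 and 5 without replicate 2, and 2319 and 6 without replicate 3. A block with 2 levels, replicate 1 and the rest, chosen after seeing the data, gave 2417 and 6. The members that passed with the block kept their direction in all alternatives run. The probe sets that changed sign lay far from the threshold: E2f1 1431875_A_AT (-0.057 to 0.14 with 1 array left out, and -0.0013 with the block without replicate 3), F3 1417408_AT (-0.18 to 0.27, and -0.11 with the block without replicate 2) and Scarb1 1437378_X_AT (-0.012 to 0.050). For E2f1 the mean over both probe sets gave -0.057, and the probe set of higher mean 0.047. Beyond the changes given here, the block changed no other call among the members. Stat3 1424272_AT lies below the 60th percentile filter, as do F3 and Nfia, and has no value there. The counts for gene lists and the search for seed matches were not run. The cause of these changes was not tested.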
